A study of Homo sapiens with 6 samples.

Results

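Hypoxia-inducible factors (HIFs) and a set of genes that respond to low oxygen were examined in RNA-seq data from KYSE70 cells, a human esophageal squamous cell carcinoma (ESCC) line, and from NRF2null-KYSE70 cells. The 10 genes were picked by symbol out of 58884 genes in the expression table. The rule used no measured value, but the genes were chosen with earlier results of these data known. They were the HIF subunit genes HIF1A, EPAS1 and ARNT, and the hypoxia-responsive genes VEGFA, CA9, ADM, NDRG1, EGLN3, BNIP3 and ANKRD37. All 10 symbols were found in the table. KYSE70 carries a gain-of-function mutation in NFE2L2, the gene for the transcription factor NRF2. NRF2null-KYSE70 was grown from a single KYSE70 clone after CRISPR-Cas9 editing of NFE2L2. Whether the clone differs from the parental line elsewhere in the genome was not examined here. Both lines were untreated and kept in RPMI1640 medium with 10% fetal bovine serum under air with 5% CO2, and no low-oxygen treatment was given. Each line had 3 libraries, and the question was whether the lines differ in these genes without a low-oxygen treatment. Oxygen at the cells was not measured. Because NRF2null-KYSE70 came from 1 clone, p-values measure the spread between libraries and not the spread between clones.

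Cells sense oxygen mainly through the stability of the HIF proteins. In oxygenated cells, prolyl hydroxylases of the EGLN family modify the HIF alpha subunits (HIF-1 alpha from HIF1A, HIF-2 alpha from EPAS1), and the VHL ubiquitin ligase then marks them for destruction. When oxygen falls, the alpha subunits persist, pair with the beta subunit encoded by ARNT, and bind hypoxia response elements near their targets. These targets support new vessel growth, glycolysis, acid export, mitophagy and the negative feedback on HIF itself. HIF activity is therefore set largely at the protein level, and an mRNA level of a HIF subunit does not measure it.

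The hypoxia response element has the core ACGTG or GCGTG, and the promoters of the members were read for these letters on both strands. RefSeq windows (GRCh38.p14), which reach from 250 bases before the annotated start to 50 bases after it, were found for 8 of the 10 members. Windows for VEGFA and NDRG1 were not used here. Of the 8 members, 6 held ACGTG or GCGTG, against 48.4% of 35116 windows of the same kind. The 250 bases before the start are printed for HIF1A and ADM, whose mRNA rose in NRF2null-KYSE70 cells, for CA9, which was not detected above the floor, and for BNIP3 and ANKRD37, which held more matches than the other members and were not called. They are written 5′ to 3′ on the strand of the gene, and capitals mark the matches to ACGTG or GCGTG on either strand (CACGT and CACGC where the match is on the other strand). The windows lie at chr14:61695263-61695512 on the plus strand for HIF1A, chr11:10304823-10305072 on the plus strand for ADM, chr9:35673678-35673927 on the plus strand for CA9, chr10:131981924-131982173 on the minus strand for BNIP3 and chr4:185396591-185396840 on the plus strand for ANKRD37. For HIF1A, which has 2 annotated starts in RefSeq, the window of the upstream start is shown. For some members, ANKRD37, EPAS1 and EGLN3 among them, the RefSeq start lies inside the gene span given below, which comes from GENCODE.

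HIF1A: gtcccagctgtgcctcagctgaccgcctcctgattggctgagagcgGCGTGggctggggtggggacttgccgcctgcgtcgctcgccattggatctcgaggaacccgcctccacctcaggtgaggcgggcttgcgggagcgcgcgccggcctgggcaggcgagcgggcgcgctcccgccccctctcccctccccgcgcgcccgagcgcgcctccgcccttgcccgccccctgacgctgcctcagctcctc
ADM: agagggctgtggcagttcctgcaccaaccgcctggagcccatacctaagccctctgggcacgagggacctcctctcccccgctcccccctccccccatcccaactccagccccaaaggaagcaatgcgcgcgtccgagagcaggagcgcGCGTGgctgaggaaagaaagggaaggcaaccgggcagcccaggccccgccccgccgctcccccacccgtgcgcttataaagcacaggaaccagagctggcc
CA9: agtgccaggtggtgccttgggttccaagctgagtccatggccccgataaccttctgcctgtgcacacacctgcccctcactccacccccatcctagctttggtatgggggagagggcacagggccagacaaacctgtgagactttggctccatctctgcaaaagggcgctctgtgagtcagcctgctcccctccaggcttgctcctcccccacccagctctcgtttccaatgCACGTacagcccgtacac
BNIP3: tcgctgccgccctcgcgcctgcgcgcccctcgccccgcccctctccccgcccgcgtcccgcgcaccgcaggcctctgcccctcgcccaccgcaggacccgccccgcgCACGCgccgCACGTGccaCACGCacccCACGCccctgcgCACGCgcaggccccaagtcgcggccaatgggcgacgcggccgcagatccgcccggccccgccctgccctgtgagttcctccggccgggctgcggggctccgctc
ANKRD37: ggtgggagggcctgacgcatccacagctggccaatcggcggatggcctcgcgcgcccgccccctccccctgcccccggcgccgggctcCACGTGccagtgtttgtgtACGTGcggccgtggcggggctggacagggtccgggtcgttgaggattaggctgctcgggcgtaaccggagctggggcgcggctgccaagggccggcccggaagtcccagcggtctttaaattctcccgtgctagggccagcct

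The HIF1A window held 1 GCGTG, from -204 to -200 relative to the start. ADM likewise held 1 GCGTG, from -101 to -97. In CA9, 1 ACGTG stood on the opposite strand from -18 to -14. BNIP3 held 4 GCGTG on the opposite strand and the palindrome CACGTG, which was counted as 2 overlapping ACGTG matches. ANKRD37 held 3 ACGTG matches, of which 2 overlapped in a CACGTG and 1 lay from -143 to -139. EPAS1, with no sequence shown, held 1 GCGTG, whereas ARNT and EGLN3 held neither core in their windows. Matches to TGACNNNGC, the core of the antioxidant response element bound by NRF2, were found in the HIF1A window from -20 to -12 and in the ARNT window from -183 to -175, and 13.3% of all windows held such a match. Members with a match to a HIF core thus included 2 that rose, 3 that did not pass the test, and CA9. A match describes the letters of the window and not binding of a factor.

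Libraries held 52072801 to 63975313 reads in genes, and libraries within a line always differed beyond sampling noise. The first NRF2null-KYSE70 library stood apart from the other two of its line: chi-square over degrees of freedom was 23.4 and 23.0 against them and 4.59 between them. It held the lowest value of its line for 6 of the 9 tested members, NDRG1 included, beside 36.2% of all tested genes. It held the highest value for 2 of the 9, beside 40.8% of all tested genes. The targeted gene NFE2L2 fell from 9928 ± 102 (SD, n = 3) to 6093 ± 319 (SD, n = 3) normalized counts, a log2 fold change of -0.71, so reads in the gene remained in the clone. HNRNPA3 on the opposite strand shares 23.4% of the exon bases of NFE2L2, and a non-coding gene on the same strand shares 13.6%. Whether counting used strand is not stated. The paper reports that some NFE2L2 transcripts and a faint, smaller NRF2 band were still found in the clone. All 9 squamous and epithelial markers on a list were tested, and 5 were higher and 4 lower (limma adjusted p under 0.05). The shares of all tested genes were 29.3% higher and 28.3% lower. The summed level of these 9 markers (normalized counts), with KRT5 the largest part, was 3.49e+05 to 3.56e+05 in KYSE70 libraries. It was 2.70e+05 to 2.83e+05 in NRF2null-KYSE70 libraries. Of 8 markers of other cell types, 4 (PECAM1, CDH5, DCN and CD3E) had 3 reads or fewer in every library, and LUM had 5 or fewer. The other 3 moved in both directions. The leukocyte marker PTPRC had 0, 0 and 1 reads in KYSE70 and 42, 41 and 42 in NRF2null-KYSE70, while the fibroblast collagens fell, COL3A1 by a log2 fold change of 4.79 and COL1A1 by 1.16. The part of these differences in the results was not tested.

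Relative to KYSE70, the NRF2null-KYSE70 clone showed a near loss of NDRG1 mRNA and moderate rises in VEGFA, ADM and HIF1A, while EPAS1, ARNT, EGLN3, BNIP3 and ANKRD37 did not pass the test and CA9 was at the floor of detection. Log2 fold changes and all intervals come from the fit to log2(normalized count + 1) and are NRF2null-KYSE70 over KYSE70, with limma's test and Benjamini-Hochberg adjusted p over the 15994 genes with a mean of at least 10 normalized counts. Ratios given as folds are of the mean normalized counts. Of the 9 members tested, 4 had an adjusted p under 0.05, against 57.6% of all genes tested. The 3 that were higher stand beside 29.3% of all genes, and the 1 that was lower beside 28.3%. With the study's further requirement of a log2 fold change of 1 or more in size, NDRG1 alone among the members passed, against 14.7% of all genes. The ranges of the lines did not overlap in 5 of the 9 members, against 63.4% of all genes. The median log2 fold change of the members was 0.060, beside -0.007 for all genes tested, and their median absolute log2 fold change was 0.154, beside 0.360. No test of the list against other genes was made.

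**Figure D1:**
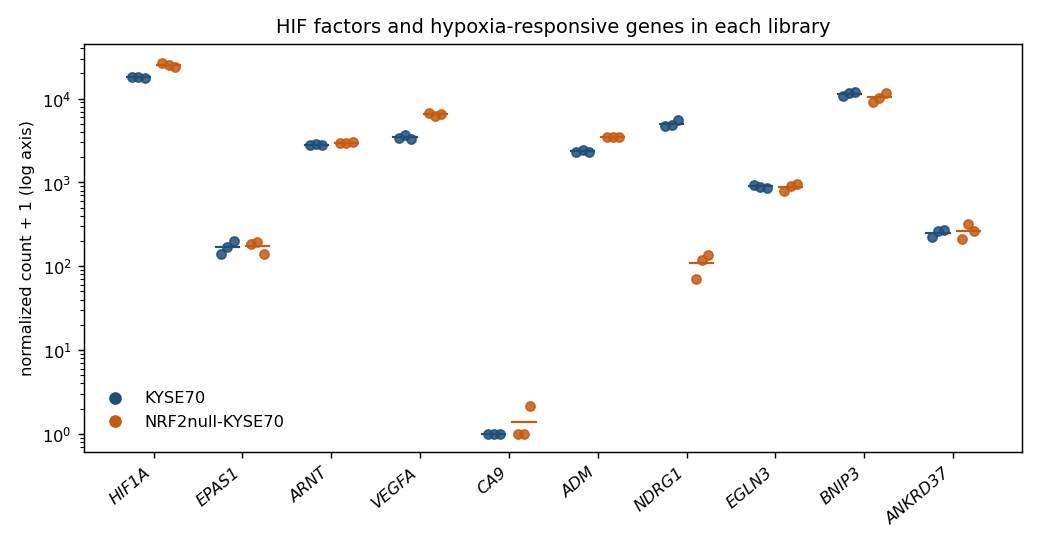
Normalized count + 1 (log axis) of the 10 members in each of the 3 KYSE70 and 3 NRF2null-KYSE70 libraries. Points are libraries in table order and short lines are group means. NDRG1 drops from 4678 to 5494 normalized counts to 70.0 to 135, HIF1A, VEGFA and ADM sit higher in every NRF2null-KYSE70 library, and CA9 has 1 read in all.

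HIF1A mRNA, which encodes the oxygen-labile subunit of HIF-1, was abundant in both lines and higher in NRF2null-KYSE70. The gene (ENSG00000100644) lies at chr14:61695513-61748259 (hg38, plus strand). Its normalized counts were 17957, 18043 and 17772 in KYSE70 and 26965, 24896 and 24001 in NRF2null-KYSE70. The groups did not overlap, and the NRF2null-KYSE70 libraries were spread more widely, with a coefficient of variation of 6.01% in place of 0.771%. The rise was 1.41-fold (95% interval 1.31 to 1.52), a log2 fold change of 0.49 ± 0.050 (SE) with a limma adjusted p of 2.66e-06.

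EPAS1 and ARNT, which encode the HIF-2 alpha subunit and the shared beta subunit, were not called. EPAS1 (chr2:46293667-46386697) had 140, 168 and 199 normalized counts in the KYSE70 libraries and 184, 194 and 138 in the NRF2null-KYSE70 libraries. These ranges overlapped almost completely, and the 95% interval of the log2 difference, from -0.38 to 0.43, leaves room for a change of either sign. ARNT (chr1:150809713-150876708) had 2807, 2855 and 2769 normalized counts in the KYSE70 libraries and 2916, 2968 and 3056 in the NRF2null-KYSE70 libraries. Each NRF2null-KYSE70 library of ARNT was above each KYSE70 library, but the log2 difference of 0.08 ± 0.052 (SE) had a limma adjusted p of 0.182 and an interval of -0.03 to 0.20. The 40 tested genes nearest to ARNT, 20 on each side, had a median log2 fold change of -0.259.

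Scaled by the merged exon length of each gene, HIF1A stood far above its partners. Its level was 3480 normalized counts per kb in KYSE70 and 4909 in NRF2null-KYSE70. ARNT followed with 436 and 462, and EPAS1 with 23.2 and 23.6 normalized counts per kb. This order held in every library. Per kb, HIF1A exceeded ARNT by 7.91 to 8.03 times in KYSE70 and by 9.83 to 11.6 times in NRF2null-KYSE70, ranges that did not overlap. The ratio of HIF1A to EPAS1 per kb ran from 126 to 182 in KYSE70 and from 182 to 246 in NRF2null-KYSE70. These ranges met, and the libraries that set the outer values were those with the highest and the lowest EPAS1.

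NDRG1, a gene induced by hypoxia, differentiation and metal chelation and named for its response to N-myc, showed by far the largest difference among the members. In KYSE70 it had 4678, 4914 and 5494 normalized counts, whereas NRF2null-KYSE70 had 70.0, 119 and 135. The level in NRF2null-KYSE70 was 2.14% of that in KYSE70, a fall of 46.6-fold (95% interval 36.2 to 63.2). On the log2 scale the difference was -5.58 ± 0.18 (SE), with a limma adjusted p of 1.02e-10. NDRG1 ranked 61 from the largest fall among the 15994 genes tested (0.381%). The values in NRF2null-KYSE70 rested on 69, 121 and 118 reads, so the mRNA was still detected in each library. In bulk RNA, fewer cells with the transcript and less transcript per cell cannot be told apart. The gene (ENSG00000104419, minus strand) is on chromosome 8, and its 40 nearest tested genes went the other way in the median, by a log2 fold change of 0.974, with a range of -6.69 to 3.30.

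VEGFA and ADM, both secreted vascular factors, were higher in NRF2null-KYSE70. VEGFA (chr6:43770184-43786487), the main growth factor for vessels, had 3389, 3666 and 3283 normalized counts in the KYSE70 libraries and 6789, 6230 and 6472 in the NRF2null-KYSE70 libraries. Every NRF2null-KYSE70 library was well above the highest KYSE70 library, and the ratio was 1.88 (95% interval 1.73 to 2.05). Its log2 fold change of 0.92 with an SE of 0.057 (limma adjusted p 3.02e-08) lay just under the study's fold cut-off of 1. ADM (chr11:10305073-10307397) encodes adrenomedullin, a vasodilator peptide. It had 2333, 2468 and 2306 normalized counts in the KYSE70 libraries and 3458, 3505 and 3468 in the NRF2null-KYSE70 libraries. The NRF2null-KYSE70 libraries of ADM were nearly equal, and the ratio was 1.47 (95% interval 1.36 to 1.59), a log2 fold change of 0.55 with an SE of 0.053 (limma adjusted p 1.71e-06). The median log2 fold change of the 40 genes nearest to ADM was 0.206 and of those nearest to VEGFA 0.025.

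BNIP3, EGLN3 and ANKRD37, which are induced by HIF in many cell types, did not pass the test. BNIP3 (chr10:131967684-131981967), a mitochondrial protein that marks mitochondria for mitophagy, had the highest level per kb of the 7 hypoxia-responsive members in both lines, with 2827 normalized counts per kb in KYSE70 and 2550 in NRF2null-KYSE70. Its normalized counts were 10707, 11702 and 11943 in KYSE70 and 9235, 10132 and 11617 in NRF2null-KYSE70. The third NRF2null-KYSE70 library lay within the KYSE70 range and the other two lay below it. The log2 difference was -0.15 (95% interval -0.31 to 0.01, limma adjusted p 0.0941), and BNIP3 was called lower after quantile normalization (-0.27, adjusted p 0.0096), after scaling to the total (-0.23, adjusted p 0.0201) and without the third NRF2null-KYSE70 library (-0.24, adjusted p 0.00748).

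EGLN3 (chr14:33924227-34462774), a HIF prolyl hydroxylase that is itself a HIF target, had 936, 891 and 864 normalized counts in the KYSE70 libraries and 783, 894 and 961 in the NRF2null-KYSE70 libraries. The KYSE70 libraries fell inside the range of the NRF2null-KYSE70 libraries, and the log2 difference of -0.03 had an interval of -0.23 to 0.16. ANKRD37 (chr4:185396021-185400628), an ankyrin repeat protein, had 221, 263 and 268 normalized counts in the KYSE70 libraries and 209, 321 and 264 in the NRF2null-KYSE70 libraries. Here too the groups overlapped, and the interval of the log2 difference ran from -0.30 to 0.42. UFSP2 on the opposite strand shares 40.3% of the exon bases of ANKRD37, and whether counting used strand is not stated. CA9 (chr9:35673928-35681159), the membrane carbonic anhydrase often used as a hypoxia marker, had 1 read in the third NRF2null-KYSE70 library and none in the other 5 libraries. It was not tested, and a difference between the lines was not detectable in these counts. ARHGEF39 on the opposite strand, with a mean of 2288 normalized counts, shares 35.7% of the exon bases of CA9. The CA9 window nevertheless held the ACGTG printed above.

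**Figure D2:**
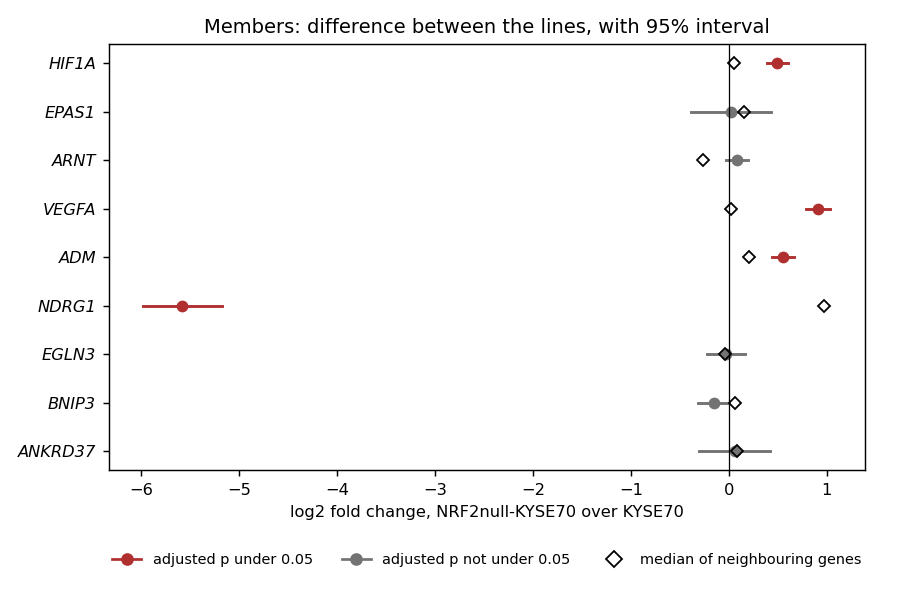
Log2 fold change (NRF2null-KYSE70 over KYSE70) of the 9 tested members with 95% intervals, red where the limma adjusted p was under 0.05. Open diamonds are the median of up to 40 neighbouring genes. NDRG1 lies at -5.58 while its neighbours lie at 0.974. HIF1A, VEGFA and ADM lie above their neighbours.

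The genes that sense oxygen and control HIF were taken as a list of 16. Of 15 tested, 3 were higher, 7 were lower and 5 were not called, beside 29.3% higher and 28.3% lower of all genes tested, with a median log2 fold change of -0.286. Lower genes included the hydroxylase EGLN1. Of 5 parts of the VHL ubiquitin ligase, VHL, ELOB and RBX1 were lower while ELOC and CUL2 were not called, and higher genes included CITED2 and HIF1AN, which both restrain HIF transcription. EGLN1, the main HIF prolyl hydroxylase in oxygenated cells, had 5921, 6077 and 5985 normalized counts in the KYSE70 libraries and 4648, 4822 and 4963 in the NRF2null-KYSE70 libraries. The groups did not overlap, and the log2 fold change was -0.32 with an SE of 0.048 (limma adjusted p 8.79e-05), while its neighbours had a median of 0.113. An unlisted overlapping gene model shares 55.8% of the exon bases of EGLN1.

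VHL, which recognises the hydroxylated alpha subunits, fell from 4961, 5069 and 5037 to 3292, 3344 and 3437 normalized counts. Its log2 fold change of -0.58 (limma adjusted p 4.35e-07) stood beside a median of -0.529 for the 40 genes around it, so VHL moved much as its neighbourhood did. The same was seen for ELOB, another part of the VHL ligase, at -0.72 beside -0.664 for its neighbours, and for the coactivator CREBBP at -0.36 beside -0.440. P4HTM, a membrane prolyl hydroxylase, was lower, at -0.29, where its neighbours were at -0.648. What part the neighbourhood had in these differences was not tested. An unlisted non-coding gene on the opposite strand shares 23.5% of the exon bases of VHL. SRRM2 on the opposite strand shares 7.12% of those of ELOB. SIAH2, a ubiquitin ligase for the EGLN proteins, was lower, at -0.35 with neighbours at -0.035. RBX1, the RING subunit of the VHL ligase, was lower, at -0.25 (limma adjusted p 0.0191), a call that was lost without the mean-variance trend (0.101) and without the second (0.0778) or the third (0.097) KYSE70 library.

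CITED2, which competes with HIF for the coactivators p300 and CBP, had the largest difference of the list. It had 355, 390 and 411 normalized counts in the KYSE70 libraries and 1323, 1388 and 1251 in the NRF2null-KYSE70 libraries. That was a rise of 3.43-fold, a log2 fold change of 1.78 with an SE of 0.089 (limma adjusted p 4.71e-09), past both of the study's cut-offs, with neighbours at 0.052. HIF1AN, the asparagine hydroxylase that blocks HIF from its coactivators, rose by a log2 fold change of 0.34 (limma adjusted p 0.000103). SIAH1 rose by 0.26, and 26.8% of its exon bases are shared with LONP2 on the opposite strand. The 5 genes not called were EGLN2 at -0.63, ARNT2 at -0.29, CUL2 at 0.09, EP300 at 0.14 and ELOC at 0.15. EGLN2 had a mean of 50.1 normalized counts in the KYSE70 libraries and 32.3 in the NRF2null-KYSE70 libraries and shares exons with the read-through gene RAB4B-EGLN2. HIF3A was at the floor in both lines.

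**Figure D3:**
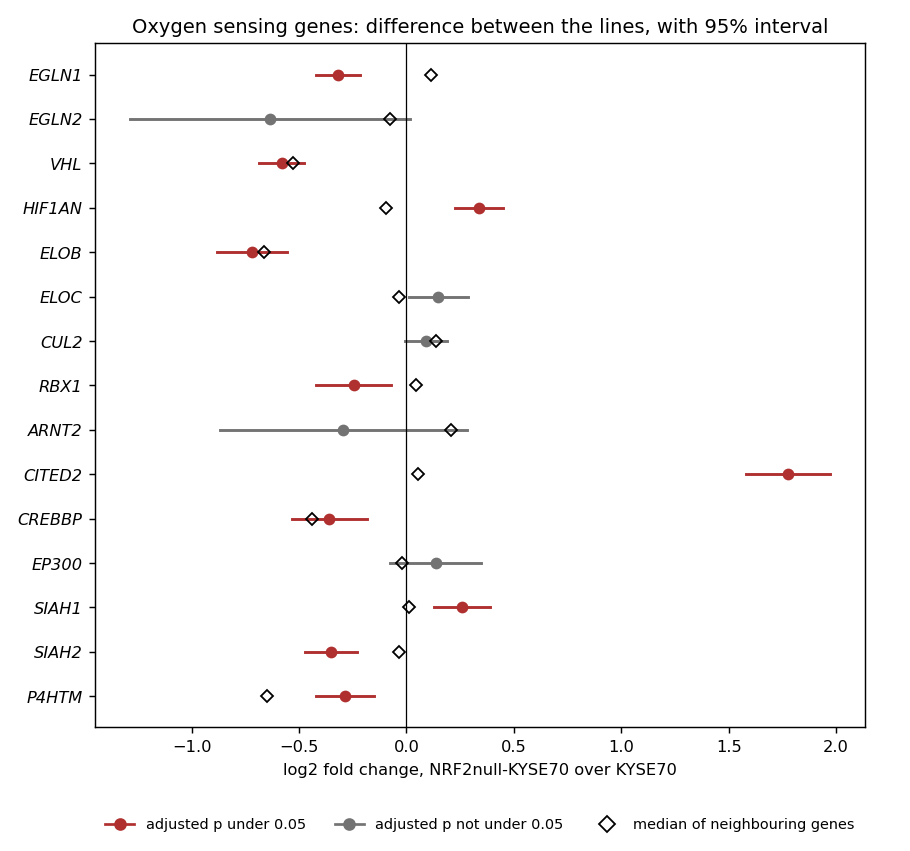
Log2 fold change (NRF2null-KYSE70 over KYSE70) with 95% intervals for the 15 tested oxygen sensing genes, red where the limma adjusted p was under 0.05. Open diamonds are the median of neighbouring genes. CITED2 stands apart at 1.78, and VHL, ELOB and CREBBP lie close to their neighbours.

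Other recognised hypoxia targets split in both directions. Of 42 genes on the list 39 were tested, and 14 were higher, 12 lower and 13 not called, shares close to the 29.3% and 28.3% of all genes, with a median log2 fold change of 0.050. Past both cut-offs were 3 higher and 3 lower genes. PDGFB, a platelet-derived growth factor chain, rose from 781 ± 27.6 (SD, n = 3) to 2801 ± 149 (SD, n = 3) normalized counts, a log2 fold change of 1.84 (limma adjusted p 2.53e-10). TMEM45A rose by 0.94 and the lipoprotein receptor VLDLR by 0.78. ANGPTL4, a secreted inhibitor of lipoprotein lipase, fell from 330 ± 27.7 (SD, n = 3) to 107 ± 11.4 (SD, n = 3) normalized counts, a log2 fold change of -1.61 (limma adjusted p 1.56e-06). ZNF395 was lower, at -1.01 (-0.99 without the first and -0.98 without the third NRF2null-KYSE70 library, under the fold cut-off). Neighbours of ZNF395 were at -0.467, and FBXO16 on the same strand shares 35% of the ZNF395 exon bases. FUT11 was lower, at -0.81 with neighbours at -0.040, and so was the ephrin ligand EFNA1, at -0.78 with neighbours at -0.332. EFNA1 was called with a limma adjusted p of 0.00487 and at 0.0519 without the mean-variance trend. The list had no single direction.

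Among hypoxia targets in glucose uptake and glycolysis, all 24 were tested, and 7 were higher, 13 lower and 4 not called, beside 29.3% higher and 28.3% lower of all genes, with a median log2 fold change of -0.177. The 20 called became 15 without the mean-variance trend, and the list was not tested against other genes. GBE1, the glycogen branching enzyme, had 1478, 1627 and 1591 normalized counts in the KYSE70 libraries and 2.03, 6.86 and 12.6 in the NRF2null-KYSE70 libraries. This near absence gave a log2 fold change of -7.83 (limma adjusted p 5.87e-09), with neighbours at -0.131. It rested on 2, 7 and 11 reads in NRF2null-KYSE70 and ran from -8.33 to -7.11 over the alternatives. LDHA, the lactate dehydrogenase of anaerobic glycolysis, went from 174280 ± 5315 (SD, n = 3) to 129890 ± 7153 (SD, n = 3) normalized counts, a log2 fold change of -0.43. PFKFB4 was lower, at -0.84 where its neighbours were at -0.665. ALDOA was lower, at -0.48 with neighbours at -0.711, and part of its exons belong to another annotated gene. Against these, the lactate exporter SLC16A3 rose from 139 ± 26.6 (SD, n = 3) to 745 ± 116 (SD, n = 3) normalized counts, a log2 fold change of 2.42 (limma adjusted p 5.20e-08). The glucose transporter SLC2A3 rose by 1.12, PFKL by 0.55 and ALDOC by 0.30, and ALDOC was not called without the mean-variance trend (adjusted p 0.0672).

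Receptors and further ligands around VEGFA and ADM were also read. Of 14 genes, 8 were tested, and 4 were higher and 2 lower, beside 29.3% and 28.3% of all genes, with a median log2 fold change of 0.716 over those tested. The other 6, among them the VEGF receptor KDR and the adrenomedullin receptor partners RAMP2 and RAMP3, were at the floor in both lines. CALCRL, which forms the adrenomedullin receptor with a RAMP, had 437, 504 and 458 normalized counts in the KYSE70 libraries and 44.6, 53.0 and 62.8 in the NRF2null-KYSE70 libraries. While ADM rose, CALCRL was at 11.5% of the KYSE70 level, a log2 fold change of -3.11 with an SE of 0.17 (limma adjusted p 1.14e-08). NRP2, a co-receptor for VEGF family ligands, had 1386, 1254 and 1190 normalized counts in the KYSE70 libraries and 6773, 5821 and 5474 in the NRF2null-KYSE70 libraries. Its log2 fold change was 2.23 (limma adjusted p 2.45e-10), and NRP1 rose by 0.82. The ADM relative ADM2 rose by 1.53. PGF rose by 0.61 (limma adjusted p 0.0156), which was lost without the mean-variance trend (0.0545) and without the first (0.0675) or the second (0.0629) KYSE70 library. VEGFB was lower, at -0.21.

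**Figure D4:**
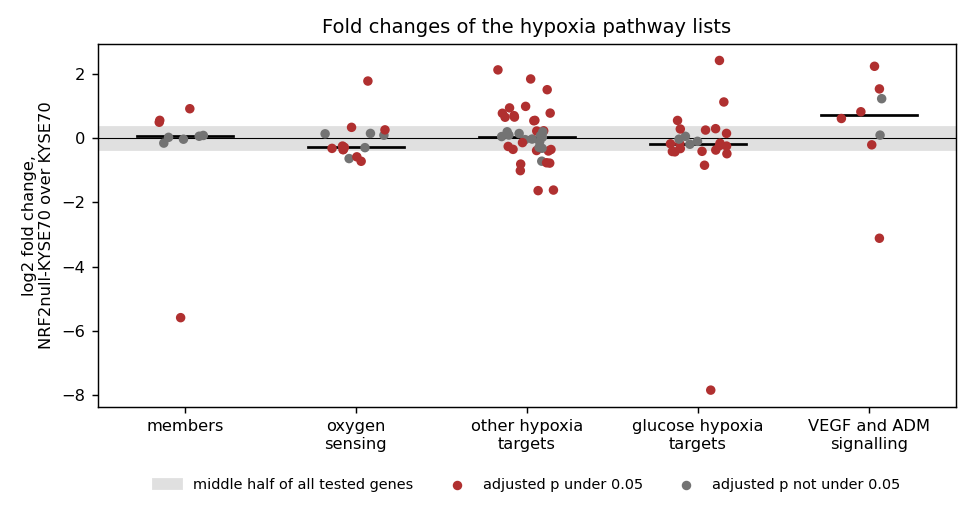
Log2 fold change (NRF2null-KYSE70 over KYSE70) of every tested gene of 5 lists, red where the limma adjusted p was under 0.05. Black lines are list medians, and the grey band is the interquartile range of all tested genes, from -0.378 to 0.342. NDRG1, GBE1 and CALCRL are the low points of the members, the glucose targets and the signalling list.

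Among close relatives of the members, 11 of 12 were tested, and 3 were higher and 5 lower, beside 29.3% and 28.3% of all genes. Other NDRG family genes were lower too, NDRG4 with a log2 fold change of -3.07 (574 ± 39.5 to 67.6 ± 8.13 normalized counts, SD, n = 3), NDRG2 with -0.92 and NDRG3 with -0.19, so each of the NDRG family members tested was called lower. Neighbours of NDRG4 were at 0.022 and of NDRG2 at -0.014. Those of NDRG3 were at -0.379, a larger fall than that of NDRG3 itself. In contrast to CA9, the carbonic anhydrases CA12 and CA2 were detected and higher, CA12 with a log2 fold change of 1.51 (limma adjusted p 0.00212) and CA2 at 8.20 ± 0.844 and 61.0 ± 23.9 normalized counts (SD, n = 3). CA8, a carbonic anhydrase relative without enzyme activity, rose by a log2 fold change of 1.00 (limma adjusted p 2.43e-08). Neighbours of CA12 were at 0.501, of CA8 at 0.295 and of CA2 at -0.110. CA13 was not called, at a log2 fold change of -0.41 (limma adjusted p 0.572). BNIP3L, the mitophagy receptor related to BNIP3, was lower, at -0.35 beside neighbours at -0.725.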

How the data were processed

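RNA-seq of untreated KYSE70 and NRF2null-KYSE70 cells was used, with 3 libraries each. Per the study's methods and the submitters' processing notes, reads were checked with FastQC 0.11.5, trimmed with cutadapt 1.12, aligned with STAR 2.6.90c to hg38, counted with featureCounts 1.5.1 and normalized with DESeq2 by the authors. Use of strand in counting was not given in the sources used here. As deposited, each value is a signal: a read count divided by the size factor of its library (normalized count). Whole reads could be recovered from them, since 100% of values were whole multiples of the value of 1 read within 0.02 reads. Columns carried the name of the line but no replicate number, so libraries are numbered by table order.

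Values were tested with limma 3.58.1 (R 4.3.3; lmFit, eBayes with trend) on log2(normalized count + 1) with the line as the only term, for genes with a mean of at least 10, two-sided, with Benjamini-Hochberg adjustment. A call was an adjusted p under 0.05, and the study's cut-off added a log2 fold change of 1 or more in size. Genes with 3 reads or fewer in each library of both lines were taken as at the floor, and this limit covers counting error only. Genes are listed by Ensembl identifier although the methods speak of RefSeq, and the submitters' notes also list a mouse build. Positions, exon lengths and overlaps came from GENCODE v44 on hg38 (58472 genes matched), and neighbours were the 20 nearest tested genes on each side. Promoter windows came from RefSeq.

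The members and lists were chosen with earlier results of these data known, so they support nothing independently. Named genes were the members, the oxygen sensing list, and up to 4 rises and 4 falls per further list among called genes whose mean reached 100 and whose lines did not overlap. Of these, 1 gene is not reported here. Paralogs past the threshold were named, and NDRG2, NDRG3, BNIP3L and CA13 were added after their values were seen. Alternatives were pseudocounts of 0.1 and 5, a filter at a mean of 50 and none, quantile, total and TMM scaling, eBayes without trend and robust eBayes, DESeq2 1.42.0 and edgeR 4.0.16 on recovered reads, each library left out (17 in all with a test per gene), and, beside these, a fold cut-off of 0.58 and subtraction of the neighbour median.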

Additional observations from a re-analysis of the deposited data

How the results depend on the processing

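HIF1A, VEGFA, ADM and NDRG1 kept their direction and their call in all 17 alternatives with a test per gene, at log2 fold changes of 0.35 to 0.53, 0.84 to 0.96, 0.48 to 0.58 and -5.77 to -5.30. Over all genes, 2344 passed both cut-offs, and 1511 did with a filter at a mean of 50, where fewer genes were tested. With a fold cut-off of 0.58, 2 members passed, NDRG1 and VEGFA. Signs turned only for members that were not called. EPAS1 went to -0.0497 with total scaling and -0.13 after subtraction of its neighbours, and ran from -0.10 to 0.17 with a library left out. ANKRD37 went to -0.0156 with total scaling and -0.0246 after subtraction, and ran from -0.0898 to 0.22. EGLN3 went to 0.0005 after subtraction and ran from -0.10 to 0.0485. The cause was not tested. Subtraction of neighbours put ARNT at 0.34, ADM at 0.35 and NDRG1 at -6.56, values with no test. ELOC was called without the third KYSE70 library (adjusted p 0.0348) or the first NRF2null-KYSE70 library (0.0197), CUL2 without the latter (0.0488), and EGLN2 without the trend (0.0338), all by limma. No paired analysis was possible because replicate numbers are missing from the column names. Genes with few reads, such as EGLN2 and CA9, and a single clone limit what these values can show.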

Other observations

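The hypoxia targets also differed between libraries of the same line. In KYSE70, the first library was the lowest for 17 of the 24 glucose targets (70.8%), against 34.8% of all tested genes, and for 21 of the 39 other hypoxia targets (53.8%). In NRF2null-KYSE70, the third library was the highest for 15 of the 24 glucose targets (62.5%), against 29.2% of all tested genes, and for 22 of the 39 other targets (56.4%), and it was the lowest for 0 of the glucose targets. Among the 9 tested members, the same library was the highest for 4 and the lowest for 2 (HIF1A and EPAS1), and in KYSE70 the first library was the lowest for 4 and the third for 5. These counts describe 6 libraries whose genes are not independent, and no test was made.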
